A study of Mus musculus with 2 samples.

Results

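The serpins of mouse epidermis were examined of mice in which Nfkbiz, the gene of the nuclear protein IκBζ, was targeted in keratinocytes. The family was taken as every gene in the RefSeq table of assembly GRCm38.p6 whose symbol begins with Serpin, a clade letter from a to i and a number, and it holds 69 genes, 29 of clade b and 40 of the other clades. Probes were tied to these genes by the RefSeq accession in the scanner files, which reached 54 of the 69 genes, out of 18206 named genes on the array. The tested RNA came from peeled epidermis of Nfkbiz flox/flox mice carrying the K5-cre transgene, in which the keratin 5 promoter of basal keratinocytes drives the recombinase, and the control RNA came from Nfkbiz flox/flox mice without it. Both genotypes therefore carry the floxed allele, and cells outside the lineage in which the keratin 5 promoter has been active keep the gene. Each genotype was measured on 1 single-colour array in the steady state, so the differences lack any replicate check and carry no test. Age, sex and the number of mice are not given in the sources used here.

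Serpins inhibit proteases by offering an exposed reactive loop as bait. The protease cleaves the loop and is then trapped and distorted in a covalent complex, so each inhibitor molecule is used once. Members of clade b lack a classical secretion signal and act mainly inside cells, where several of them are products of keratinocytes, while most members of the other clades are secreted into blood or tissue fluid. Some serpins have no inhibitory role and serve as hormone carriers, chaperones or growth regulators.

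The arrays shared 1 slide and 1 scan day. The 75th percentile of signal, by which each array was scaled, was 239 on the knockout array and 205 on the control array, so that equal signals before scaling give a difference slightly below 0 after it. The lowest signal well above background was 12.1 on the knockout array and 12.7 on the control array. Nfkbiz had a signal of 1760 on the knockout array and 3100 on the control array (log2 difference -1.04 ± 0.20). It fell below a 2-fold difference under median scaling and under normexp background correction, at -0.72 and -0.97. A single probe reads it, and the labels do not say whether that probe lies in the deleted part. All 7 basal keratinocyte markers and all 7 suprabasal markers with a probe were measured. After scaling all 7 basal markers were below 0, at a median of -0.24, against -0.040 for all genes. They ran from -0.98 for Itga6, at 1640 on the knockout array and 2770 on the control array, to -0.0017 for Dst. Krt5, at 54400 on the knockout array and 52200 on the control array, differed by -0.16. Of the suprabasal markers 5 were below 0 and 2 above, at a median of -0.090. The errors after ± are standard errors from the scanner software's error model and cover technical error within these arrays, not differences between mice.

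Of the 54 serpins with a probe, 31 were measured on both arrays, meaning well above background and not saturated. A further 5 were measured on the knockout array alone, none on the control array alone, and 17 stayed near background on both. Serpinb1c had probes that differed in detection. Probe brightness depends on the probe as well as on the transcript, so signals are compared between the arrays and not between genes.

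Serpinb2, Serpinb11 and Serpina9 were at least 2-fold lower on the knockout array, and no serpin measured on both arrays was 2-fold higher. These are 3 of 31 measured members lower, where 4.40% of the 12396 genes with a value from both genotypes were lower by that measure and 3.03% higher. The family's median log2 difference was -0.39, against -0.040 for all genes. Below 0 were 27 of the 31 serpins, where 53.9% of all genes were. Median scaling moves all differences up by 0.32, which brings the median of all genes to 0.28, of the serpins to -0.074 and of clade b to -0.20. Quantile normalization put the serpin median at -0.16, with all genes at 0.018. Relative to the median gene, 25 of 31 serpins were lower under the 75th percentile and normexp, and 24 of 31 under quantile normalization and cyclic loess. Median scaling, a uniform shift, cannot change that count. Differences larger than 2 standard errors of the scanner software were found for 11 of the 31, against 33.5% of all genes, which is a share close to that of genes in general.

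**Figure D1:**
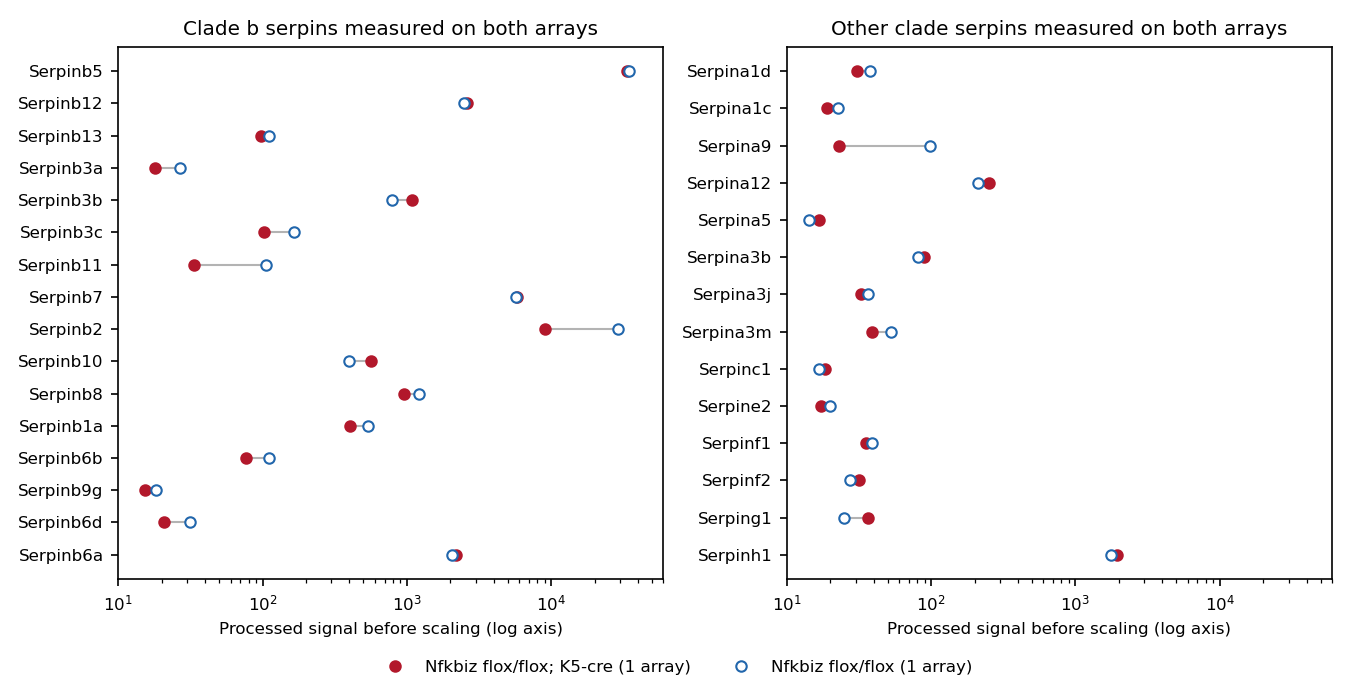
Processed signal before scaling (log axis) on the knockout array (filled red) and the control array (open blue) for 30 of the 31 serpins measured on both, 1 array per genotype. Serpinb2 stands at 9080 on the knockout array against 29100 on the control array, Serpinb11 at 33.3 against 105 and Serpina9 at 23.1 against 98.8, while most other pairs nearly touch.

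In clade b, 16 of the 25 genes with a probe were measured on both arrays. The 2-fold lower members were Serpinb2 and Serpinb11, and the 14 others lay within 2-fold. The clade's median difference was -0.52, with an interquartile range from -0.81 to -0.19. In the other clades, 15 of the 29 genes with a probe were measured on both arrays, Serpina9 was 2-fold lower, and the median was -0.35, with an interquartile range from -0.50 to -0.041. The ranges of the clade b and other-clade values overlapped almost wholly, from -1.90 to 0.31 in clade b and from -2.32 to 0.33 in the others. The difference between the medians, clade b minus other clades, was -0.17, with no error or test from 1 array per genotype, and ran from -0.34 under quantile normalization, where the other clades had a median of -0.093, to -0.11 under normexp. Members seen on the knockout array alone were then added at their bounds where these lay above 0, 1 in clade b and 2 of 4 in the other clades. The medians so taken were -0.48 for clade b and -0.082 for the other clades. Only bounds above 0 could enter, and no serpin was measured on the control array alone, so these medians could only rise. The gap between them therefore adds nothing to the comparison of the clades.

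**Figure D2:**
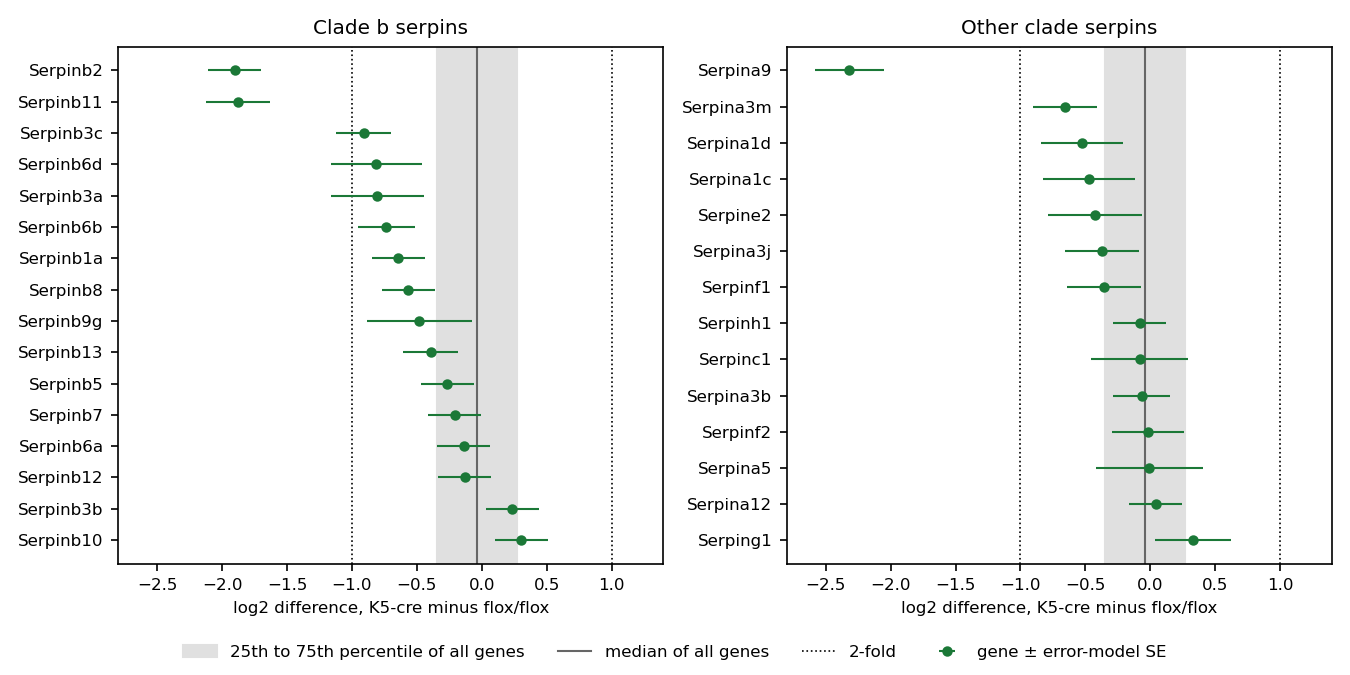
Log2 difference of 30 of the 31 measured serpins, knockout minus control, with its error-model standard error, for clade b (left) and the other clades (right). The grey band is the 25th to 75th percentile of all genes, the solid line their median at -0.040 and the dotted lines a 2-fold difference. The 3 genes beyond the left dotted line are Serpinb2, Serpinb11 and Serpina9.

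Serpinb2 encodes plasminogen activator inhibitor type 2, which blocks urokinase and tissue plasminogen activator and is made by keratinocytes and macrophages. Its probe had a signal of 9080 on the knockout array and 29100 on the control array (-1.90 ± 0.20, a 3.74-fold lower level). The second probe of the gene had 7340 on the knockout array and 26800 on the control array, a log2 difference of -2.09. Both probes thus read the gene as lower, and the 29 measured spots around the first probe on the slide had a median difference of -0.11, with 2 of them past 2-fold. Among alternatives the difference stayed between -2.00 with the mean over probes and -1.58 under median scaling. Both signals lay far above the background limit on either array.

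Serpinb11, another clade b gene, had 33.3 on the knockout array and 105 on the control array (-1.88 ± 0.24, 3.68-fold lower). It rests on 1 probe near the lower end of the measured range. Normexp with an offset of 50, which shrinks differences of dim probes, gave -0.96, just short of 2-fold, and median scaling gave -1.56. The 31 measured spots around it had a median difference of -0.083.

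Serpinb11, Serpinb7 and Serpinb2 follow one another along chromosome 1, with no other serpin between them in the RefSeq order. Serpinb7, in which mutations cause a palmoplantar keratosis in humans, had 5800 on the knockout array and 5750 on the control array (-0.21 ± 0.20). The gene between the 2 lower ones was therefore within technical error of the median gene. The next serpin on the far side of Serpinb2 is Serpinb10, a clade b gene of blood-forming cells, with 568 on the knockout array and 394 on the control array (0.31 ± 0.20). The next before Serpinb11 is Serpinb3c at 103 on the knockout array and 166 on the control array (-0.91 ± 0.21), the measured clade b gene nearest to the 2-fold limit without reaching it.

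The 250 bases before the start of these 3 neighbours are given because the genes adjoin and their differences between the arrays were unlike. The sequences are from RefSeq, build GRCm38.p6, plus strand, 5′ to 3′, at chr1:107362064-107362313 for Serpinb11, chr1:107422439-107422688 for Serpinb7 and chr1:107511173-107511422 for the first of the listed starts of Serpinb2. Capitals mark matches on either strand to the AP-1 motif TGANTCA, the C/EBP motif TTGCNNAA and the TATA box TATAAA. The 10-base NF-κB consensus was searched as well.
Serpinb11: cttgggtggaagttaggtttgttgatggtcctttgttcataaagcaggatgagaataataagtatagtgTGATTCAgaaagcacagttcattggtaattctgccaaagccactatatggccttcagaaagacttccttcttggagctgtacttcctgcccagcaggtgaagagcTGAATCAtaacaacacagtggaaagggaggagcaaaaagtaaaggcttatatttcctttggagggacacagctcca
Serpinb7: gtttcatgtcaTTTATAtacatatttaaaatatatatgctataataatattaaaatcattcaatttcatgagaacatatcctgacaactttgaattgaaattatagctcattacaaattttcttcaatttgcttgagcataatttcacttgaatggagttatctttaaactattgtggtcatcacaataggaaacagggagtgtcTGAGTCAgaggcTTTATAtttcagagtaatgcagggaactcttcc
Serpinb2: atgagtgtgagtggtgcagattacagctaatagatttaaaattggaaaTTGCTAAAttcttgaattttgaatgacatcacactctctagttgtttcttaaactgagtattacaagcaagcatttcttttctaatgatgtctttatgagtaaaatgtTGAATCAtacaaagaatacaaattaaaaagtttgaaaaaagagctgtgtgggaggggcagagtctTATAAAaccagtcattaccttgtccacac

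An AP-1 match stood in all 3 windows, from -94 to -88 relative to the start of Serpinb2, from -45 to -39 in Serpinb7, and at -181 to -175 and -76 to -70 in Serpinb11. Across all 32851 promoter windows of this length, 6.75% held an AP-1 match, 9.56% a C/EBP match, 12.4% a TATA box and 7.25% the NF-κB consensus. The C/EBP match, from -202 to -195, was in the Serpinb2 window alone of the 3, and no window held the NF-κB consensus. A TATA box match stood at -29 to -24 in Serpinb2, on the gene's own strand. The matches at -239 to -234 and -33 to -28 in Serpinb7 read TTTATA, so TATAAA lay on the opposite strand. A match is only a run of letters and says nothing about binding. The AP-1 pattern, which leaves its middle letter open, matched before the genes 2-fold lower and before Serpinb7, but the letters were not the same. Serpinb7 read TGAGTCA, Serpinb2 TGAATCA, and Serpinb11 TGATTCA and TGAATCA. The second listed start of Serpinb2 also held an AP-1, a C/EBP and a TATA match.

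**Figure D3:**
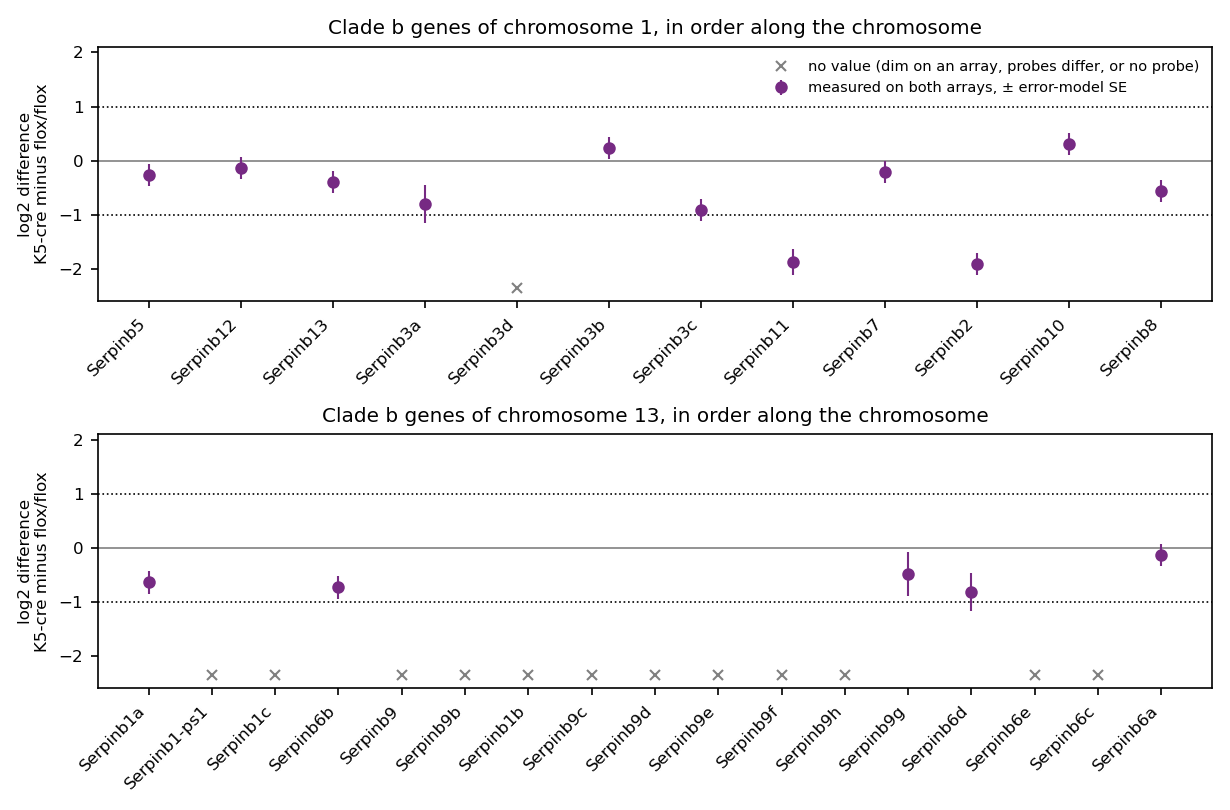
Log2 difference, knockout minus control, with error-model standard error, for the clade b genes of chromosome 1 (top, 12 genes) and chromosome 13 (bottom, 17 genes) in their order along the chromosome, evenly spaced. Crosses at the lower edge mark genes with no value. Serpinb11 and Serpinb2 lie near -1.9 on either side of Serpinb7 at -0.21, and no measured gene of chromosome 13 passes the dotted 2-fold lines.

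The other clade b genes of chromosome 1 include those best known in keratinocytes. Serpinb5, which encodes maspin, a member without protease-inhibiting activity, had 33400 on the knockout array and 34400 on the control array (-0.26 ± 0.20). Serpinb12 had 2630 on the knockout array and 2470 on the control array (-0.13 ± 0.20), and its other probe differed by -0.33. Serpinb13, an inhibitor of cathepsins L and K also called headpin, had 97.6 on the knockout array and 110 on the control array (-0.39 ± 0.21), while the 18 measured spots around its probe had a median of -0.50. Serpinb8, whose human counterpart is mutated in a peeling skin disorder, had 954 on the knockout array and 1210 on the control array (-0.56 ± 0.20), and its second probe gave -0.66. None of these reached 2-fold, and of the 4 only Serpinb8 differed by more than 2 standard errors.

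The Serpinb3 family, close copies related to the human squamous cell carcinoma antigens, was split. Serpinb3b had 1090 on the knockout array and 795 on the control array (0.23 ± 0.20). Serpinb3a had 17.9 on the knockout array and 26.8 on the control array (-0.80 ± 0.36), and Serpinb3c is given above. Serpinb3d was not well above background on either array. These copies resemble each other closely, as do those of the Serpinb6, Serpinb9, Serpina1 and Serpina3 families, so a probe of one may also read another, and the values of single copies are uncertain to that degree.

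On chromosome 13, 5 of 13 clade b genes with a probe were measured on both arrays, all below 0 (Serpinb6a not under median scaling) and none 2-fold apart, with a median of -0.64. Serpinb1a, an inhibitor of neutrophil elastase and cathepsin G, had 405 on the knockout array and 542 on the control array (-0.64 ± 0.20). Serpinb6a, an inhibitor of cathepsin G and trypsin-like proteases, had 2180 on the knockout array and 2060 on the control array (-0.14 ± 0.20). Its relatives Serpinb6b and Serpinb6d differed by -0.73 ± 0.22 and -0.81 ± 0.35. Median scaling, by its uniform shift, put Serpinb6a above 0, as it did Serpinb5, Serpinb7 and Serpinb12, and left their place relative to the median gene as it was. The same holds for Serpinh1, Serpinc1, Serpina3b, Serpinf2 and Serpina5 among the other clades.

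The Serpinb9 family, inhibitors of granzyme B and related proteases, was mostly dim. Of 7 copies with a probe, 6, Serpinb9 itself among them, were not well above background on either array, which does not show that they are absent. Serpinb9g had 15.2 on the knockout array and 18.2 on the control array (-0.48 ± 0.40). Serpinb1b passed the background limit on the knockout array alone, at 26.6 against 21.2 on the control array (0.11 ± 0.48). Serpinb1c was read by 2 probes that disagreed. The brighter had 25.4 on the knockout array and 8.74, not well above background, on the control array, and the other had 13.3 on the knockout array and 13.6 on the control array (-0.25), so no value is given for the gene.

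Among the secreted clades, Serpina9 was the only member at least 2-fold lower. Its difference exceeded that of Serpinb2 under the 75th percentile but not under normexp. Its signal was 23.1 on the knockout array and 98.8 on the control array (-2.32 ± 0.27, 4.99-fold lower). In humans this serpin is known from germinal centre B cells. It rests on 1 probe, the 17 measured spots around it had a median difference of -0.14, and normexp reduced the difference to -1.09. No list of B-cell markers was examined here.

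The α1-antitrypsin copies of clade a were dim, with Serpina1d at 30.5 on the knockout array and 37.7 on the control array (-0.53 ± 0.31) and Serpina1c differing by -0.47 ± 0.35. Of 8 antichymotrypsin-like Serpina3 genes with a probe, 3 were measured on both arrays and none was 2-fold apart. They were Serpina3b (-0.067 ± 0.22), Serpina3j (-0.37 ± 0.28) and Serpina3m (-0.66 ± 0.24). Serpina12, which encodes the adipokine vaspin, had 253 on the knockout array and 211 on the control array (0.041 ± 0.21). Serpina5, the protein C inhibitor, was near the background limit, at 16.6 on the knockout array and 14.3 on the control array (-0.0062 ± 0.41). The hormone carriers Serpina6 and Serpina7, for corticosteroid and thyroxine, stayed near background on both arrays, as did Serpina10, Serpina1f, Serpina4-ps1, Serpina3a, Serpina3c, Serpina3k, Serpina3n and, outside clade a, Serpini2.

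Of the serpins of clades c to i, which include inhibitors of coagulation, fibrinolysis and complement, none measured on both arrays was 2-fold apart. Serpine2, protease nexin 1, differed by -0.42 ± 0.36, antithrombin (Serpinc1) by -0.082 ± 0.37 and α2-antiplasmin (Serpinf2) by -0.016 ± 0.28. Serping1, the C1 inhibitor of complement, had 36.3 on the knockout array and 24.8 on the control array (0.33 ± 0.29). Heparin cofactor II (Serpind1) and neuroserpin (Serpini1) were measured on the knockout array alone. Serpind1 had 23.2 on it and 17.9, not well above background, on the control array (0.15 ± 0.44). Serpini1 had 16.7 on the knockout array and 7.27 on the control array (0.98 ± 0.66), with a bound of 1.13-fold higher. Serpina11 and Serpina3f, also measured on the knockout array alone, gave no fold past 1.

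Among members outside protease control, Serpinh1, the collagen chaperone HSP47, had 1950 on the knockout array and 1770 on the control array (-0.082 ± 0.20). Serpinf1, the pigment epithelium-derived factor, differed by -0.35 ± 0.29, and its second probe by -0.46. Across the 4 serpins with more than 1 probe measured on both arrays, the probes of a gene differed from each other by 0.099 to 0.20, less than the error of a single difference.

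**Figure D4:**
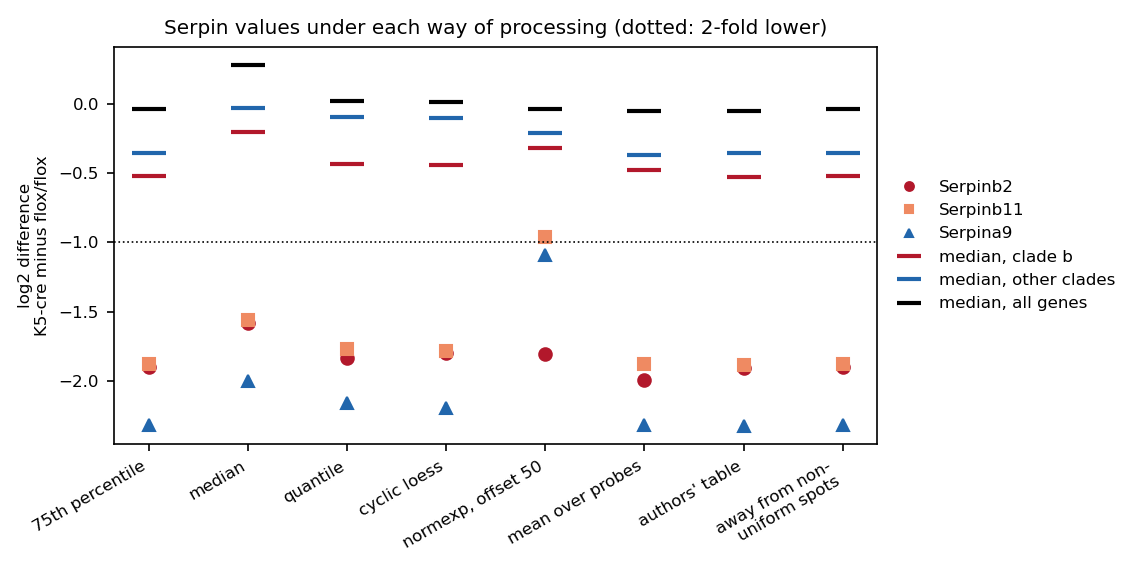
Log2 difference, knockout minus control, of the 3 serpins at least 2-fold lower (symbols) and the medians of clade b, the other clades and all genes (dashes) under 8 ways of processing, the first being the 75th percentile. The clade b dash lies below the other-clade dash and that below the all-gene dash in each of the 8. Median scaling, a uniform shift, could not change this order, and the authors' table holds nearly the scanner values. Normexp moves the dim Serpinb11 and Serpina9 to -0.96 and -1.09 while Serpinb2 stays at -1.81.

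The proteases, partners and inhibitors below are from lists chosen by known function. Among proteases that serpins act on, or that act beside them in epidermis, most members lay within 2-fold. Of 27 measured members, 1 (3.70%) passed 2-fold downwards and none upwards. Of all genes 4.40% were lower and 3.03% higher, so the lower count is near that of genes in general. The list median was -0.23, against -0.040 for all genes. Prss8, the channel-activating protease prostasin, had 446 on the knockout array and 847 on the control array (-1.15 ± 0.20), and was at -0.83 under median scaling. Urokinase (Plau), a target of Serpinb2, had 82.0 on the knockout array and 46.5 on the control array (0.60 ± 0.23). The highest difference in the list was that of the serine protease gene Prss27, at 367 on the knockout array and 182 on the control array (0.79 ± 0.21). Tissue plasminogen activator (Plat) had 207 on the knockout array and 290 on the control array (-0.71 ± 0.20). The desquamation kallikreins Klk5 and Klk7 differed by -0.046 and -0.059, and cathepsin L by -0.25. Cathepsin G was measured on the control array alone and was at least 1.72-fold lower. F2 and C1ra were measured on the knockout array alone, with bounds of 1.24-fold and 1.10-fold higher (differences 1.57 ± 0.86 and 0.33 ± 0.45).

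Among receptors and cofactors of plasminogen activation, 3 of 9 measured members passed 2-fold downwards and none upwards. Of all genes 4.40% were lower and 3.03% higher by that measure. The list median was -0.37, against -0.040 for all genes. The urokinase receptor gene Plaur had 30.2 on the knockout array and 78.1 on the control array (-1.59 ± 0.26). Vldlr, a lipoprotein receptor that takes up ligands including protease and inhibitor complexes, had 111 on the knockout array and 225 on the control array (-1.24 ± 0.21). Both calls are sensitive to processing, since normexp put Plaur at -0.74 and Vldlr at -0.90, and median scaling put Vldlr at -0.92. None of the 9 was past 2-fold under normexp. Lrp1, the main clearance receptor of such complexes, had 489 on the knockout array and 316 on the control array (0.41 ± 0.21), and Anxa2, a plasminogen receptor subunit, differed by 0.52 ± 0.20.

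Inhibitors outside the serpin family included members on either side of 2-fold. Of 23 measured members, 3 passed 2-fold downwards and 1 upwards, around a list median of -0.35, against -0.040 for all genes. Wfdc3, a protein with the WAP inhibitor fold, had 81.8 on the knockout array and 521 on the control array (-2.89 ± 0.21, 7.43-fold lower). Slpi, an inhibitor of elastase with the same fold, was 5.48-fold lower and Wfdc18 3.94-fold lower. Wfdc21 had 10100 on the knockout array and 3050 on the control array (1.51 ± 0.20, 2.84-fold higher). Wfdc12, well above background on the knockout array only, had 55.1 on it and 14.2 on the control array (1.73 ± 0.43, 3.33-fold higher). The share of all genes was 4.40% lower and 3.03% higher, so the count of higher members is near that of genes in general. No difference between this list and the serpins was tested.

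**Figure D5:**
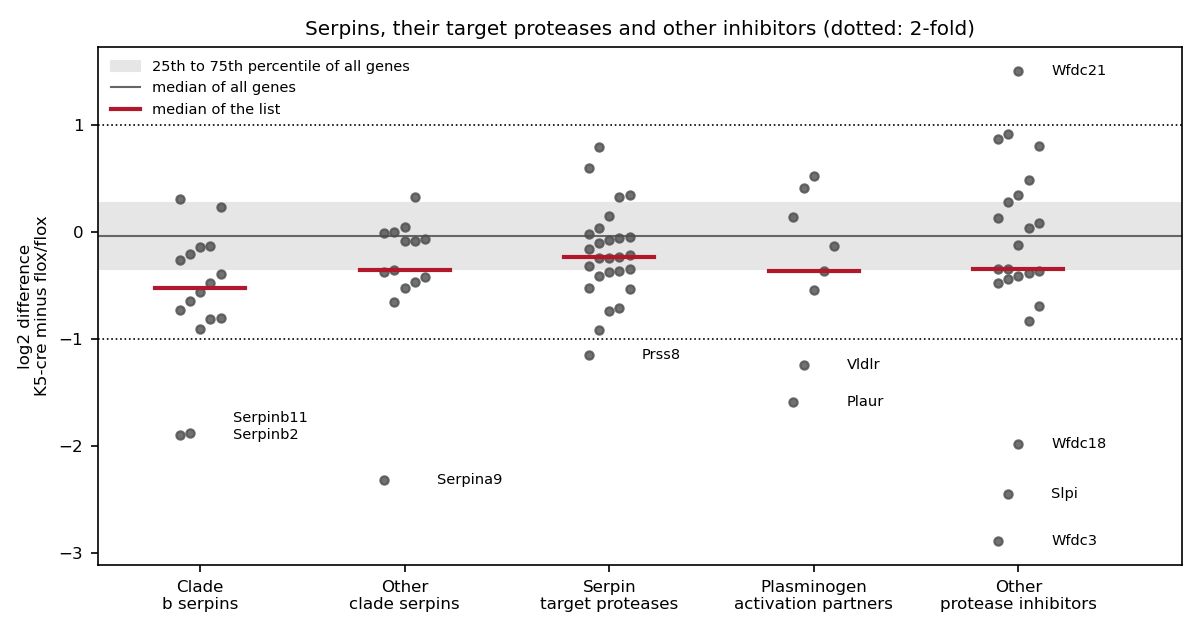
Log2 difference, knockout minus control, of the measured members of 5 lists (points, 1 serpin and 1 partner not drawn, with the median of the whole list as a red bar), over the 25th to 75th percentile of all genes (grey). Dotted lines mark 2-fold and drawn members beyond them are named. Serpins reach below the lower line in 3 cases and the other protease inhibitors pass the lower line in 3 cases and the upper in 1.

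Markers of other cells moved between the arrays too. The summed signal of the list, over all members with a probe, was 485 on the knockout array and 1774 on the control array for melanocytes (3 of 3 measured members at least 2-fold lower, Dct, Tyrp1 and Pmel, with Tyr dim on both arrays). It was 443 on the knockout array and 1177 on the control array for skeletal muscle. There 4 of 6 measured members were lower, Acta1, Myl1, Tnnt3 and Tnni2, while Mylpf (-0.037) and Atp2a1 (-0.060) hardly differed. Actn3 and Pvalb were dim on both arrays. The sum for red blood cells was 2146 on the knockout array and 18372 on the control array (4 of 4 lower, Hbb-bt, Hba-a1, Alas2 and Slc4a1). Endothelial markers summed to 102 on the knockout array and 342 on the control array (1 of 2 lower, Vwf, with Cldn5 at -0.34 and Pecam1, Cdh5 and Kdr dim on both). Emcn, above background on the control array alone, had a bound of 5.36-fold lower (difference -4.26 ± 1.13). Tek, above it on the knockout array alone, had a bound of 1.30-fold higher (difference 1.84 ± 1.01). T-cell markers summed to 1968 on the knockout array and 1248 on the control array (1 of 6 higher, Cd247), Langerhans cell markers to 26375 on the knockout array and 20265 on the control array (1 of 6 higher, Cd207, and 3 of 6 below 0, Epcam, Mfge8 and Cd1d1), macrophage and monocyte markers to 1382 on the knockout array and 844 on the control array (none of 3 past 2-fold, Lyz2, Mrc1 and Fcgr1 dim), and dermal fibroblast markers to 3132 on the knockout array and 3041 on the control array (none of 7). These sums are of unscaled signals. After scaling, the ratio of the sums, knockout over control, was 0.883 for fibroblast markers, 1.12 for Langerhans cell markers, 1.35 for T-cell markers and 1.41 for macrophage and monocyte markers. Of 4 measured adipocyte markers none passed 2-fold, at a median of 0.41. All 5 neutrophil markers with a probe were dim on both arrays, and mast-cell markers were measured in 2 of 5, neither past 2-fold. The part of these cells in the serpin values was not tested, and in bulk RNA fewer cells of a type and less RNA per cell cannot be told apart.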

How the data were processed

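Epidermis was lifted from skin after 30 min in 3.8% ammonium thiocyanate, and RNA was amplified and labelled with Cy3, per the labels' protocols. Per the file headers, Agilent Feature Extraction 10.7.3.1 read the spots of a mouse design annotated on mm9, and the deposited intensity values are background-subtracted and detrended within each array. The authors also deposited a table of log2 values, centred per probe (largest absolute sum 1e-06). Its difference between the genotypes had r = 1.00 with the scanner values across probes.

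Log2 processed signals were scaled to each array's 75th percentile over non-control spots. Repeat spots were averaged without outliers, and a gene was read by its brightest probe. RefSeq accessions named 64.8% of 41134 probes. For a gene dim on 1 array, the bound replaces its dim signal by the lowest signal well above background where that is higher. Where the dim signal is the higher, the bound is the difference itself and is given with its error. Bounds are not strict limits, since a probe can exceed that lowest signal and still be dim. Serpinb1b did so at 21.2 on the control array. Genes were called at 2-fold, with no p-value, since each genotype has 1 array, which limits the precision. Named were the serpins measured on at least 1 array, and of other lists the members past 2-fold or, failing that, up to 3 with the largest differences, though cell-marker lists with no such member are given as list values only. Further list members are named for their function, their difference or their detection on 1 array, chosen after their values were seen. Values of 1 serpin and 1 list member are not reported here, though counts and medians hold them. Members and lists were chosen with earlier results of these data known. Alternatives used limma 3.58.1 in R 4.3.3, the rest matplotlib 3.10.9, pandas 2.3.3 and numpy 2.4.6 under Python 3.11.15. Normexp was fitted on median spot signals without non-uniform spots.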

Additional observations from a re-analysis of the deposited data

How the results depend on the processing

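No paired analysis was possible because there is only 1 array per genotype. Serpin counts at least 2-fold lower (3) stayed at 2 to 3 under every scaling, background correction and choice of probes tried. They were 10 at 1.5-fold and 6 with no filter on background, and 1 serpin, Serpinb1c, was 2-fold higher when 1 measured array sufficed or with no filter. For clade b the lower count was 7 at 1.5-fold and 1 under normexp, with 1 higher in the same filter settings, and for the other clades 3 at 1.5-fold and 4 with no filter. The medians were -0.20 for clade b and -0.034 for the other clades under median scaling. The median of all genes was 0.28 under median scaling, 0.018 under quantile normalization and 0.012 under cyclic loess. Over all genes, 375 higher and 546 lower became 953 and 295 with median scaling, 181 and 238 with normexp, 566 and 823 when 1 measured array sufficed, 668 and 1421 with no filter, 1255 and 1637 at 1.5-fold, and 105 and 188 at 3-fold. Nfkbiz fell short of 2-fold at -0.72 (median scaling) and -0.97 (normexp). Target proteases had 1 member higher under median scaling and with either looser filter and 2 at 1.5-fold. The lower ones were 0 under median scaling and at 3-fold, 2 when 1 measured array sufficed, 3 with no filter and 4 at 1.5-fold. Plasminogen activation partners had 1 lower under median scaling and at 3-fold and 0 under normexp. Other inhibitors had 4 higher under median scaling and at 1.5-fold, 2 under quantile normalization and loess, 3 with either looser filter and 0 at 3-fold, and 5 lower with no filter and at 1.5-fold. Of the recomputed values of single serpins, 186 moved by less than their standard error, 30 moved further, 24 of them under median scaling and 6 under normexp, and 1, Serpinb11 under normexp, dropped under 2-fold. Naming probes by a gene-name column was not run, since the scanner files used here have none. Dim probes limit what can be said of the 17 serpins near background.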

Other observations

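Most clade b genes of chromosome 1 shared a match to a promoter pattern that the choice of members did not use. Of the 11 with a RefSeq promoter window, 7 held an AP-1 match in the 250 bases before a start. These were all 7 genes with a window outside the Serpinb3 family. None of 15 clade b genes of chromosome 13 and 4 of 28 genes of the other clades held one. These counts are of genes, over any start. Counted by window, 6.75% of all 32851 windows and 8 of 32 clade b windows held a match. The 4 Serpinb3 genes each held a TATA box match, that of Serpinb3d on the opposite strand, and no AP-1 match. The AP-1 pattern leaves its middle letter open. Of the 7 genes of chromosome 1 with a match, only Serpinb7 and Serpinb8 read TGAGTCA, and the others had A or T in the middle. The 4 genes of the other clades read TGACTCA. Within the 7 genes of chromosome 1 the differences ran from -1.90 for Serpinb2 to 0.31 for Serpinb10. Any part of the letters in these differences was not tested. Duplicated genes share sequence and are not independent cases, and the comparison was chosen after the values were seen.

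Most serpins were dim. Of the 31 measured on both arrays, 20 lay in the dimmest of 3 equal groups of all measured genes, where the median difference of all genes was -0.16 and that of the serpins -0.48. In the brightest group, where 7 of 8 serpins were of clade b, the medians were -0.041 for all genes and -0.17 for the serpins. The dimmest group held 7 of 16 measured clade b genes and 13 of 15 of the other clades, so brightness differs between the 2 groups compared, and its part in their medians was not tested.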
